A study of Rattus norvegicus with 12 samples.

Results

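The shared transcriptional response to rapamycin was examined over 2 rat hepatic tumor cell lines, as 1 average difference between 6 rapamycin arrays and 6 vehicle arrays with the cell line held as a block. All 12 arrays of the series entered this comparison. The GN5 line was obtained by treating WB-F344, a rat liver epithelial line, with the carcinogen N-methyl-N'-nitro-N-nitrosoguanidine, and the H5D line came from a hepatocellular carcinoma that an azo dye had induced in a Fischer rat. Each line received 50 nM rapamycin or its solvent, DMSO (vehicle), for 24 h, with 3 plates per line and treatment. The medium (DMEM/F12 for GN5, Waymouth's for H5D, each with fetal bovine serum) differed between lines and was the same for both treatments. Each is a single established line, labeled as intermediate in its response to rapamycin, and the replicates of a group are plates of that line. The p-values of the average therefore reflect plate-to-plate spread within 2 lines. Because line and treatment were fitted as additive, they also take in any difference of the response between the lines. Their precision is limited by the 3 arrays of a group.

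Rapamycin binds the immunophilin FKBP12, and the complex blocks mTORC1, the form of the kinase mTOR that holds raptor. mTORC1 promotes translation by phosphorylating S6 kinase and the 4E-BP translation repressors, restrains autophagy and lysosome formation, and raises the translation of ATF4, a transcription factor that drives genes of amino acid uptake, amino acid synthesis and tRNA charging. It also acts on sterol synthesis through SREBP and on glycolysis through HIF1A. Part of its signaling is negative feedback on the insulin and insulin-like growth factor receptors through IRS1. These statements are background on the pathway and not results of the arrays.

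Labeled RNA was hybridized to RatRef-12 BeadChips, on which beads carry 1 probe sequence each. Values are log2 intensities after background correction and quantile normalization. Of 22523 probes, 6805 (30.2%) were tested, namely those detected (detection p of at most 0.01) on all 3 arrays of at least 1 group in each line. The other 15718 were left out, among them genes detected in 1 line only. The number of detected probes per array lay between 7427 and 8483. The median raw signal was 105.9 and 96.2 on GN5 vehicle replicates 2 and 3 and 74.3 to 82.7 on the other arrays, and H5D vehicle replicate 2 had the lowest minimum (14.9 against 42.3 to 49.9), so the results were also computed without these arrays. With GN5 vehicle replicates 2 and 3 left out, only replicate 1 remained in that group. A call that ended there can therefore also reflect the lost replicates. Of the hepatocyte markers, 11 of 13 measured, including Alb, Ttr, Hnf4a and Afp, were undetected on all 3 arrays of each group, whereas Tf was detected throughout and rose with rapamycin (0.45, adjusted p = 0.0117). The Tf groups were not separated in both lines. Its call ended without GN5 vehicle replicates 2 and 3 and with arrays scaled to a common median (adjusted p = 0.126 with that scaling). A sum over the 13 hepatocyte markers holds background signal of the 11 undetected probes beside Tf and G6pc1. It is therefore not a total of expressed markers. The summed normalized intensity of the hepatocyte markers was 539 to 620 on GN5 rapamycin arrays, against 484 to 548 on GN5 vehicle arrays, and 3734 to 4874 on H5D rapamycin arrays, against 2878 to 3175 on H5D vehicle arrays. That of 9 biliary and progenitor markers was 7248 to 7808 on GN5 rapamycin arrays, below the 8741 to 9134 on GN5 vehicle arrays, and 28709 to 30369 on H5D rapamycin arrays, above the 25142 to 25623 on H5D vehicle arrays. Among these, keratin 8, Krt8, was not called on average (0.072, adjusted p = 0.737) and had changes of -0.28 in GN5 and 0.43 in H5D, which differed between the lines (adjusted p = 0.0104). Cd24 had changes of -0.16 in GN5 and 0.18 in H5D and was not called (0.0098, adjusted p = 0.966), and keratin 7, Krt7, was called higher (0.31, adjusted p = 0.0218), a call that ended without GN5 vehicle replicate 2 or H5D rapamycin replicate 1 or 2 (highest adjusted p = 0.0517). The sum of 6 mesothelial markers was 9856 to 10436 on GN5 rapamycin arrays, above the 7734 to 9216 on GN5 vehicle arrays, and 427 to 538 on H5D rapamycin arrays, against 391 to 491 on H5D vehicle arrays. That of 10 mesenchymal and stellate markers, of which vimentin was detected in all 4 groups, overlapped between treatments in both lines. The part of these shifts in the results below was not tested. Of 7 leukocyte and 5 endothelial markers measured, only Cd14 and, in H5D, Tie1 were detected on all 3 arrays of a group. The RNA came from whole cultures, in which fewer cells of a kind and less RNA per cell cannot be told apart.

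Calls among genes of amino acid stress and tRNA charging were mostly lower with rapamycin, and those among YAP targets were higher. Lists and members were chosen with earlier results of these data known, so list counts here and below describe the lists and do not test them. Of 14 ATF4-linked stress regulators 8 were called lower, of 16 cytosolic tRNA synthetases 9 were called lower, and of 12 YAP and TEAD targets 9 were called higher, where called means an adjusted p below 0.05 in an additive limma model of line and treatment. The other 6 stress regulators, 6 synthetases and 3 YAP targets did not pass, and 1 synthetase was called higher. Without GN5 vehicle replicates 2 and 3, the calls numbered 6, 7 and 4, and with arrays scaled to a common median 5, 5 and 3. The stress cofactor Nupr1 fell 2.78-fold, the mTORC1 inhibitor Ddit4 2.29-fold and the serine synthesis enzyme Psph 2.06-fold. Among the rises, the caveolae protein Cav1 rose 1.91-fold and the vasoconstrictor Edn1 1.85-fold. In all, 548 of the 6805 probes (8.05%) were called: 265 were higher (3.89%) and 283 lower (4.16%) with rapamycin, and they stood for 431 named genes. The shares of 3.89% and 4.16% are those to set beside every list count, above and below. Most changes were modest. The median size of a called change was 0.35 on the log2 scale, 476 called probes reached 1.2-fold, and 14 higher and 28 lower probes reached 1.5-fold. No probe rose and 4 fell by 2-fold or more, namely Nupr1, Ddit4, Psph and 1 probe with no gene name.

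The number of calls moved with the processing, whereas the direction of the named calls did not. The named calls were chosen on these same arrays, and the alternatives reuse most of them. A kept sign was therefore favored in advance and is a description, not a test. With arrays scaled to a common median in place of quantile normalization, 49 probes were called. That scaling shifted the median of all tested probes by -0.15 in GN5 and 0.17 in H5D, against 0.0025 and -0.014 in the quantile normalized data. Without GN5 vehicle replicates 2 and 3, 121 probes were called (49 higher and 72 lower), and 114 of these were among the 548. Leaving out 1 array at a time gave 291 to 575 calls, and the number was more than 1.5 times lower without GN5 rapamycin replicate 2 (291) or 3 (310), GN5 vehicle replicate 2 (328) or 3 (306), or H5D rapamycin replicate 1 (299) or 2 (342). The 99 called genes named by the rule in the methods kept their sign in every one of these alternatives in which they were tested. The call held without each array in turn for 63 of them, and under every alternative in which they were tested for 22. Casp4 and Cbs, among these 22, were undetected on the GN5 rapamycin arrays. They were thus not tested in the alternative with probes detected on all 12 arrays. These 22 were Nupr1, Ddit4, Psph, Ifi27l2b, Ddit3, Phgdh, Yars1, Casp4, Cars1, Atf4, Nars1, Nqo1, Akr1b8, Cbs, Aars1, Igfbp7, St6gal1, Fbxl20, Ccpg1, Zfp523, Edn1 and Cav1. Scaling to a common median ended the call of 68 of the 99, and leaving out GN5 vehicle replicates 2 and 3 that of 62.

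An average over 2 lines can come from either of them. Of the 548 called probes, 546 changed in the same direction in both lines, and in 386 the smaller of the 2 line changes was over 0.5 times the larger one. The additive model favors a shared direction by construction, so these counts describe the set and do not test it. In 319 of the called probes (58.2%), the 3 rapamycin arrays lay wholly on 1 side of the 3 vehicle arrays in both lines and in the same direction, against 6.13% of all tested probes. Of these, 154 lay above (against 2.78% of all tested probes) and 165 below (against 3.35%). Another 223 were separated in this way in 1 line only and 6 in neither. When each line was fitted on its own 6 arrays, 364 probes were called in GN5 and 23 in H5D, and 340 of the 548 were called in neither. Across all tested probes, the changes of the 2 lines correlated weakly (Pearson r = 0.33, Spearman rho = 0.30, 6805 probes that share arrays and normalization), and 59.1% had the same sign. The change differed between the lines for 41 probes (0.602%), of which 10 were among the 548.

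**Figure D1:**
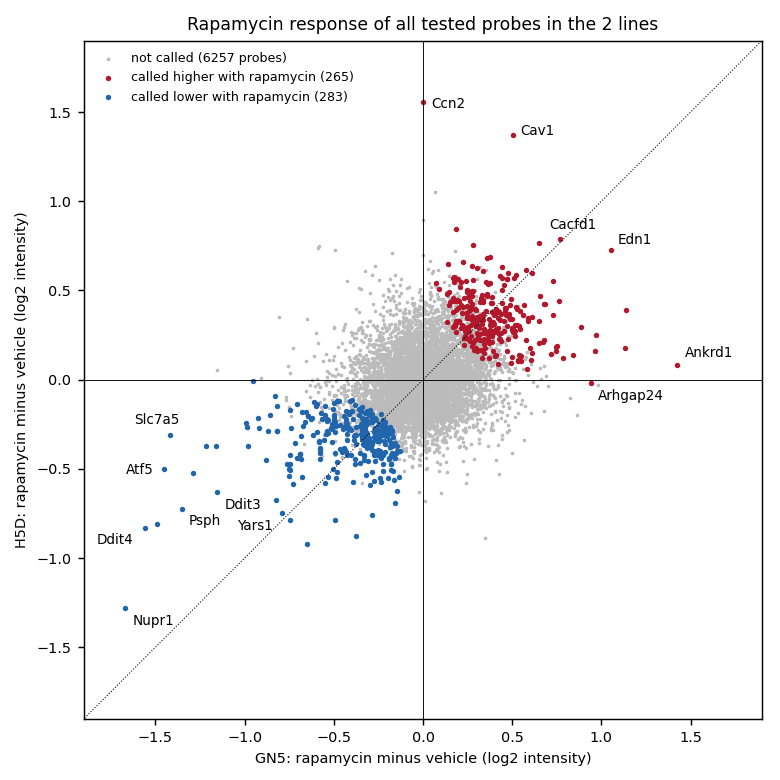
Rapamycin minus vehicle difference (log2 intensity) of 6805 probes in GN5 (x axis) and in H5D (y axis), with probes called for the average effect in color (265 higher, 283 lower). All but 2 of the 548 colored probes lie in the quadrants of shared direction, and Ccn2 and Ankrd1 lie near an axis.

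First among the falls that were large in both lines was Nupr1, a small chromatin protein induced by amino acid and endoplasmic reticulum stress. Its log2 intensity was 9.72, 9.67 and 9.52 on the GN5 rapamycin arrays, against 11.32, 11.18 and 11.42 on the GN5 vehicle arrays, and 8.07, 8.01 and 8.25 on the H5D rapamycin arrays, against 9.30, 9.61 and 9.26 on the H5D vehicle arrays. All 6 rapamycin values lay under the vehicle values of their own line (log2 fold change -1.48, SE 0.094, adjusted p = 2.69e-07). The change was -1.67 in GN5 and -1.28 in H5D, and the difference between the lines did not pass (GN5 minus H5D -0.39, interval -0.73 to -0.044, adjusted p = 0.316).

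Ddit4, also known as REDD1, holds mTORC1 in check through the TSC complex. It gave 7.11, 6.55 and 6.80 with rapamycin against 8.32, 8.29 and 8.52 with vehicle in GN5, and 6.37, 6.42 and 6.34 with rapamycin against 7.10, 7.26 and 7.27 with vehicle in H5D. The groups did not overlap in either line (log2 fold change -1.19, SE 0.13, adjusted p = 5.81e-05), with a change of -1.56 in GN5 and -0.83 in H5D. Psph catalyzes the last step of serine synthesis and read 9.93, 10.01 and 9.83 with rapamycin against 11.29, 11.17 and 11.38 with vehicle in GN5, and 9.63, 9.62 and 9.60 with rapamycin against 10.36, 10.25 and 10.42 with vehicle in H5D. It was lower on each rapamycin array (log2 fold change -1.04, SE 0.1, adjusted p = 3.41e-05), and its fall was larger in GN5 than in H5D (difference -0.63, interval -0.90 to -0.35, adjusted p = 0.0435).

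Ddit3 encodes CHOP, a transcription factor induced downstream of ATF4. Its values were 7.45, 7.23 and 7.05 with rapamycin against 8.17, 8.37 and 8.63 with vehicle in GN5, and 8.46, 8.47 and 8.69 with rapamycin against 8.95, 9.41 and 9.16 with vehicle in H5D. Groups were separated in both lines (log2 fold change -0.89, SE 0.12, adjusted p = 0.000591). Atf5, a relative of ATF4 that is itself under translational control, gave 6.93, 7.04 and 6.91 with rapamycin against 8.09, 8.51 and 8.65 with vehicle in GN5, and 7.65, 7.99 and 8.18 with rapamycin against 8.18, 8.91 and 8.22 with vehicle in H5D. In H5D the highest rapamycin array and the lowest vehicle array were equal to 2 decimals, and the call (log2 fold change -0.98, SE 0.18, adjusted p = 0.00541) had an adjusted p of 0.0455 without GN5 vehicle replicates 2 and 3 and of 0.0679 when H5D vehicle replicate 2 was left out as well. Atf4 itself read 10.16, 9.98 and 10.02 with rapamycin against 10.62, 10.79 and 10.94 with vehicle in GN5, and 9.77, 9.65 and 9.99 with rapamycin against 10.13, 10.53 and 10.51 with vehicle in H5D. Its messenger RNA was lower with rapamycin in both lines (log2 fold change -0.66, SE 0.091, adjusted p = 0.000762), with a change of -0.73 in GN5 and -0.59 in H5D.

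Together, 8 of the 14 ATF4-linked stress regulators tested were called lower (57.1%, against 4.16% of all probes) and 0 higher. The list median was -0.37 against -0.003 over all probes. The median was -0.73 in GN5 and -0.22 in H5D. Besides the genes above, the called members were Herpud1, an endoplasmic reticulum membrane protein (-0.39, adjusted p = 0.00373), Cebpg, a dimer partner of ATF4 (-0.31, adjusted p = 0.0142), and Eif4ebp1, the gene of the mTORC1 substrate 4E-BP1 (-0.46, adjusted p = 0.0328). The list shares Ddit4 with the list of mTOR regulators and Eif4ebp1 with that of mTOR substrates. The kinases Eif2ak3 (-0.0046) and Eif2ak4 (-0.012), which phosphorylate eIF2 upstream of ATF4, were not called, nor were Cebpb (0.11), Ppp1r15a (-0.12), Gadd45a (-0.27) and Pck2 (-0.35). The 2 last-named members had line changes of opposite sign, -0.73 in GN5 and 0.18 in H5D for Gadd45a and -0.75 in GN5 and 0.039 in H5D for Pck2. Leaving out 1 array at a time gave 7 to 8 called members, and without GN5 vehicle replicates 2 and 3 there were 6. The call of Eif4ebp1 ended without GN5 rapamycin replicate 1, 2 or 3, GN5 vehicle replicate 1, 2 or 3 or H5D vehicle replicate 2 (highest adjusted p = 0.0817). Atf3, Trib3 and Chac1 did not pass the detection filter in both lines and were not tested here.

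Enzymes that make serine and carry its one-carbon unit fell in part. Of 8 tested, 4 were called lower (50%, against 4.16% of all probes) and 0 higher, with a median of -0.37 (-0.52 in GN5 and -0.28 in H5D). Phgdh, which commits a glycolytic intermediate to serine, was the member with the larger fall in H5D. Its values were 10.06, 9.95 and 10.11 with rapamycin against 10.59, 10.64 and 10.84 with vehicle in GN5, and 8.77, 9.01 and 8.80 with rapamycin against 9.74, 9.73 and 9.86 with vehicle in H5D. The groups were apart in both lines (log2 fold change -0.78, SE 0.079, adjusted p = 3.88e-05). Shmt2, the mitochondrial serine hydroxymethyltransferase, gave 7.99, 8.01 and 8.00 with rapamycin against 8.72, 9.43 and 9.50 with vehicle in GN5, and 9.22, 9.76 and 9.94 with rapamycin against 9.76, 10.62 and 9.66 with vehicle in H5D. The H5D groups overlapped for this gene, and its call (log2 fold change -0.79, SE 0.2, adjusted p = 0.0251) ended without GN5 rapamycin replicate 1, 2 or 3, GN5 vehicle replicate 2 or 3, H5D rapamycin replicate 1 or H5D vehicle replicate 2 (highest adjusted p = 0.0645). Mthfd1l, a mitochondrial formyl-tetrahydrofolate enzyme, fell as well (-0.57, adjusted p = 0.00966, and 0.0892 without GN5 vehicle replicates 2 and 3), with changes of -0.92 in GN5 and -0.21 in H5D (difference -0.71, adjusted p = 0.0435). The cytosolic enzymes Mthfd1 (-0.14) and Tyms (0.025) and methionine synthase Mtr (-0.063) were not called. Of 10 enzymes of other amino acid pathways, 2 were called lower. Cbs, which makes cystathionine, was not detected on the GN5 rapamycin arrays, so its fall has only a bound of at least 1.23-fold (adjusted p = 0.00111). The call of Bcat1, a branched-chain aminotransferase (-0.32, adjusted p = 0.0326), ended without GN5 rapamycin replicate 2 or 3, GN5 vehicle replicate 2, H5D rapamycin replicate 1, 2 or 3 or H5D vehicle replicate 1 or 3 (highest adjusted p = 0.0792).

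Amino acid transporters divided. Of 11 tested, 4 were called lower (36.4%, against 4.16% of all probes) and 1 higher (9.09%, against 3.89%), with a median of -0.18. Slc7a5, the light chain of the large neutral amino acid transporter, read 7.34, 7.70 and 7.54 with rapamycin against 8.99, 9.02 and 8.83 with vehicle in GN5, and 7.78, 7.66 and 7.41 with rapamycin against 8.10, 7.93 and 7.75 with vehicle in H5D. Its fall (log2 fold change -0.86, SE 0.16, adjusted p = 0.00745) came mostly from GN5, with changes of -1.42 in GN5 and -0.31 in H5D (difference -1.11, interval -1.49 to -0.73, adjusted p = 0.00961). Its partner, the heavy chain Slc3a2, gave 10.28, 10.49 and 10.27 with rapamycin against 10.99, 10.95 and 11.12 with vehicle in GN5, and 10.26, 10.23 and 10.13 with rapamycin against 10.39, 10.57 and 10.45 with vehicle in H5D. The groups were separated in both lines (log2 fold change -0.47, SE 0.085, adjusted p = 0.00545). The glycine transporter Slc6a9 (-0.77, adjusted p = 0.00541) fell and was detected on 1 of 3 GN5 rapamycin arrays. The call of the taurine transporter Slc6a6 (-0.48, adjusted p = 0.0377) ended without GN5 rapamycin replicate 1, 2 or 3, GN5 vehicle replicate 1, 2 or 3, H5D rapamycin replicate 1 or 2 or H5D vehicle replicate 2 (highest adjusted p = 0.0927). The glutamate transporter Slc1a1 was called higher (0.30, adjusted p = 0.0304), a call that ended without GN5 rapamycin replicate 1 or 2, GN5 vehicle replicate 2, H5D rapamycin replicate 1, 2 or 3 or H5D vehicle replicate 2 (highest adjusted p = 0.0709). When GN5 vehicle replicates 2 and 3 were left out, adjusted p was 0.0703 for Slc7a5, 0.0517 for Slc3a2 and 0.0522 for Slc6a9, and none of the transporters was called.

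Cytosolic aminoacyl-tRNA synthetases, which load tRNAs with their amino acids, formed the list with the lowest median among those tested. Of 16 members, 9 were called lower and 1 higher, the median was -0.42 (-0.56 in GN5 and -0.27 in H5D), and 14 were below 0 in both lines. In 7 of them, all rapamycin arrays lay under all vehicle arrays of the line, in both lines. Over all tested probes, 4.16% were called lower, 3.35% lay under in this way and 59.1% had the same sign in both lines, in either direction. The tyrosine enzyme Yars1 changed almost equally in the 2 lines. Its values were 9.84, 9.86 and 9.82 with rapamycin against 10.58, 10.62 and 10.69 with vehicle in GN5, and 9.03, 9.32 and 9.39 with rapamycin against 10.00, 10.07 and 9.91 with vehicle in H5D. The change was -0.79 in GN5 and -0.75 in H5D (log2 fold change -0.77, SE 0.071, adjusted p = 3.34e-05). Nars1, for asparagine, read 10.52, 10.53 and 10.60 with rapamycin against 11.51, 11.18 and 11.21 with vehicle in GN5, and 10.07, 9.98 and 9.93 with rapamycin against 10.60, 10.46 and 10.55 with vehicle in H5D. No array of 1 treatment reached the range of the other (log2 fold change -0.65, SE 0.075, adjusted p = 0.000175). Aars1, for alanine, gave 10.67, 10.92 and 10.90 with rapamycin against 11.30, 11.53 and 11.31 with vehicle in GN5, and 9.95, 10.17 and 10.07 with rapamycin against 10.64, 10.77 and 10.52 with vehicle in H5D. It too was lower on every rapamycin array of both lines (log2 fold change -0.56, SE 0.076, adjusted p = 0.000609).

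The other called synthetases were Cars1 for cysteine (-0.66, adjusted p = 0.0017), Iars1 for isoleucine (-0.56, adjusted p = 0.00407), Sars1 for serine (-0.54, adjusted p = 0.0431), Tars1 for threonine (-0.50, adjusted p = 0.00267), Gars1 for glycine (-0.43, adjusted p = 0.0155) and Wars1 for tryptophan (-0.42, adjusted p = 0.00436). Sars1, Tars1, Gars1, Wars1 and Qars1 lie outside the rule for named genes and were picked with their values in view, to complete the list. The glutamine enzyme Qars1 rose (log2 fold change 0.47, SE 0.091, adjusted p = 0.00767), with 8.46, 8.46 and 8.33 with rapamycin against 7.73, 7.98 and 7.77 with vehicle in GN5, and 7.89, 8.07 and 7.95 with rapamycin against 7.82, 7.33 and 7.74 with vehicle in H5D. Its groups were separated in both lines, opposite in direction to the 9 that fell. The lysine enzyme Kars1 (-0.067, adjusted p = 0.67) and the arginine enzyme Rars1 (-0.19, adjusted p = 0.217) did not pass. Leaving out 1 array at a time gave 8 to 10 lower members. The call of Sars1 ended without GN5 rapamycin replicate 1, 2 or 3, GN5 vehicle replicate 2 or 3, H5D rapamycin replicate 1 or H5D vehicle replicate 2 (highest adjusted p = 0.102). With GN5 vehicle replicates 2 and 3 omitted, 7 members were called lower, and Qars1 had an adjusted p of 0.051. Of 11 mitochondrial synthetases on the array 6 were tested, and limma called 0 of them (1 had an unadjusted p below 0.05), with a median of 0.0065. A plain t-test in the same model of line and treatment, without limma's pooling of spread over probes, also called 0. It used Benjamini-Hochberg adjustment and the 1.2-fold limit of the study's methods, which in contrast tested each line on its own.

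**Figure D2:**
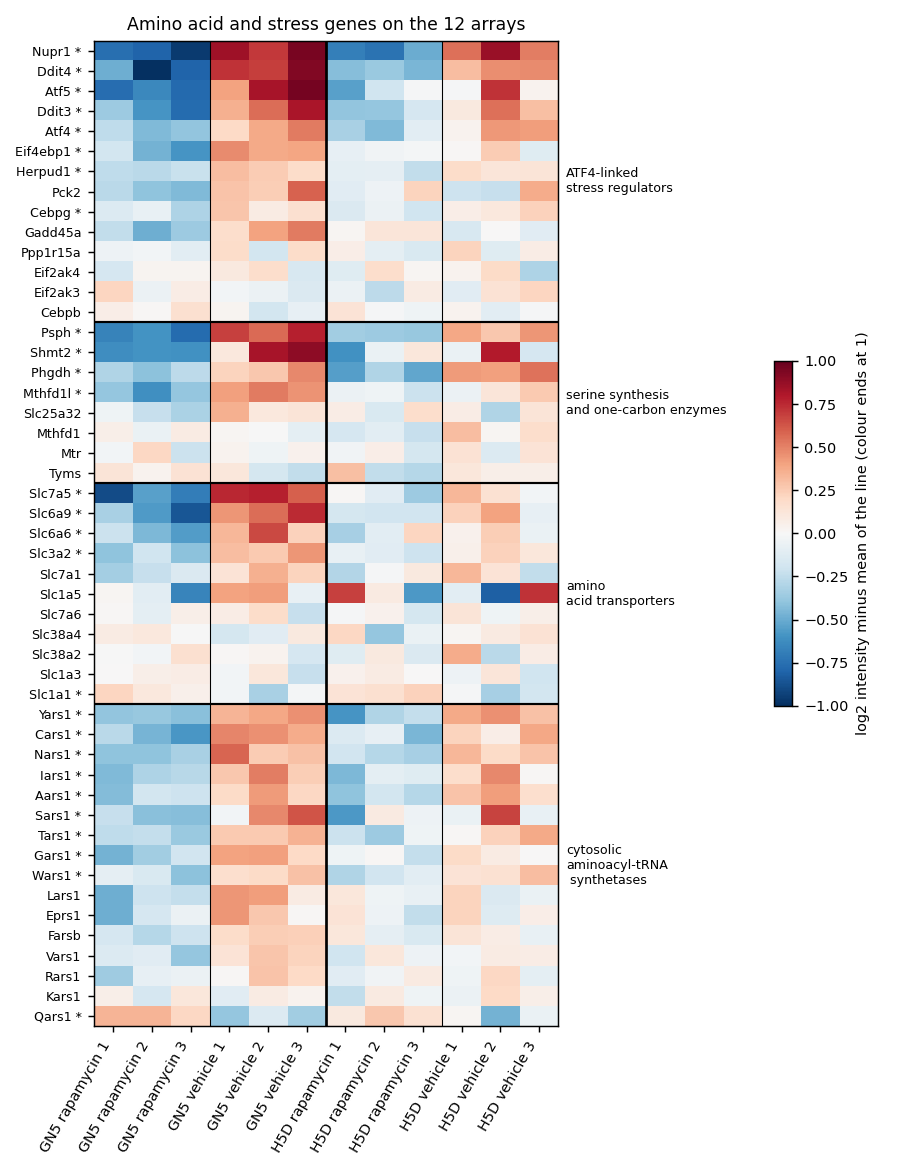
Log2 intensity of stress regulators, serine and one-carbon enzymes, amino acid transporters and cytosolic tRNA synthetases on the 12 arrays, each minus the gene's mean in that line (color ends at 1), with called genes starred. The starred rows other than Slc1a1 and Qars1 are lower on average on the rapamycin arrays. The median change of the stress regulators was -0.73 in GN5 and -0.22 in H5D, whereas Phgdh, Aars1 and Slc1a1 changed more in H5D.

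ATF4 binds a composite C/EBP-ATF element, and promoters were searched for its core letters, TGATGCAA, on both strands (TTGCATCA on the other). Windows ran from 250 bases before to 50 bases after the start of each gene in RefSeq (GRCr8 assembly), and the first listed window of a gene was used. A window was matched for 4350 of 5087 tested genes and for 94 of 108 named genes. The letters occurred in 0.743% of the 27457 genes with a window, in 8 of 194 genes called lower (4.12%), in 0 of 171 called higher and in 25 of 3985 not called (0.627%). Of the 33 tested genes that held them, 8 were called lower (24.2%) and 0 higher, against 186 of 4317 genes without them called lower (4.31%). The median change of the 33 was -0.036, and 25 of them were not called. The 8 were Nupr1, Herpud1 and 6 synthetases. Of 14 synthetases with a window, the 6 with the letters (Yars1, Cars1, Nars1, Iars1, Aars1 and Tars1) were all called lower, and 2 of the 8 without them were. A match describes these letters and is neither a measured binding site nor a cause.

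Of these 8 genes, all lower on every rapamycin array than on any vehicle array of the same line, the windows of 6 are shown. These are the 6 with the largest falls, Nupr1 and 5 synthetases. Of all tested probes, 3.35% were lower in this way. Capitals mark the element, and positions count from the gene start, with -1 the base before it. In Nupr1 (chr1:190645902-190646061, minus strand) the match began at -55, in Yars1 (chr5:146820183-146820212, plus strand) at 39, in Cars1 (chr1:208225334-208225363, minus strand) at 18, in Nars1 (chr18:60275783-60275942, minus strand) at -14, in Iars1 (chr17:15193653-15193812, minus strand) at -24 and in Aars1 (chr19:55908322-55908481, plus strand) at -112.
Nupr1: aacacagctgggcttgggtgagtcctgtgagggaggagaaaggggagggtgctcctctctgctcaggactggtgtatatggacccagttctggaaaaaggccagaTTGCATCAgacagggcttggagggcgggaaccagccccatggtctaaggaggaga
Yars1: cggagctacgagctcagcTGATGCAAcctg
Cars1: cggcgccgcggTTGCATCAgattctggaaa
Nars1: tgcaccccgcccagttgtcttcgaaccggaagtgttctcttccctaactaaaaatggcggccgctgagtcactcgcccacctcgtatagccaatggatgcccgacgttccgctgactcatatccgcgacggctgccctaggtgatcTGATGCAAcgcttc
Iars1: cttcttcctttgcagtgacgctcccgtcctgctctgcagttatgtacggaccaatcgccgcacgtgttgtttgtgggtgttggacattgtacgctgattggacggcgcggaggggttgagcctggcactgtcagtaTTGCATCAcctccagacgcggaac
Aars1: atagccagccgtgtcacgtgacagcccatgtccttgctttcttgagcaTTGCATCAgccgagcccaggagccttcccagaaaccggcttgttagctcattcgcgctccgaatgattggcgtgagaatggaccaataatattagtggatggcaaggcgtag
In Nars1 and Yars1 the element reads forward as TGATGCAA, and in the other 4 as its reverse complement. It lay closest to the start in Nars1 and farthest from it in Aars1. The stretches of Yars1 and Cars1 are short because their element lies after the start.

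The shares of other motifs were as follows. The looser form TGATGNAAN on both strands occurred in 4.64% of genes called lower, 2.34% called higher and 1.81% not called, against 3.80% of all genes with a window. The TEAD motif CATTCC, bound by the partners of YAP, was in 19.3% of genes called higher, 11.9% called lower and 10.2% not called (13.9% of all). The sterol element TCACNCCAC was in 0.516% of genes called lower and 1.75% called higher (1.13% of all), and the E-box CACGTG, which TFEB and MYC bind, in 12.9% and 9.94% (6.65% of all and 10.3% of those not called). The looser form contains the strict one, and the other motifs do not contain each other.

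**Figure D3:**
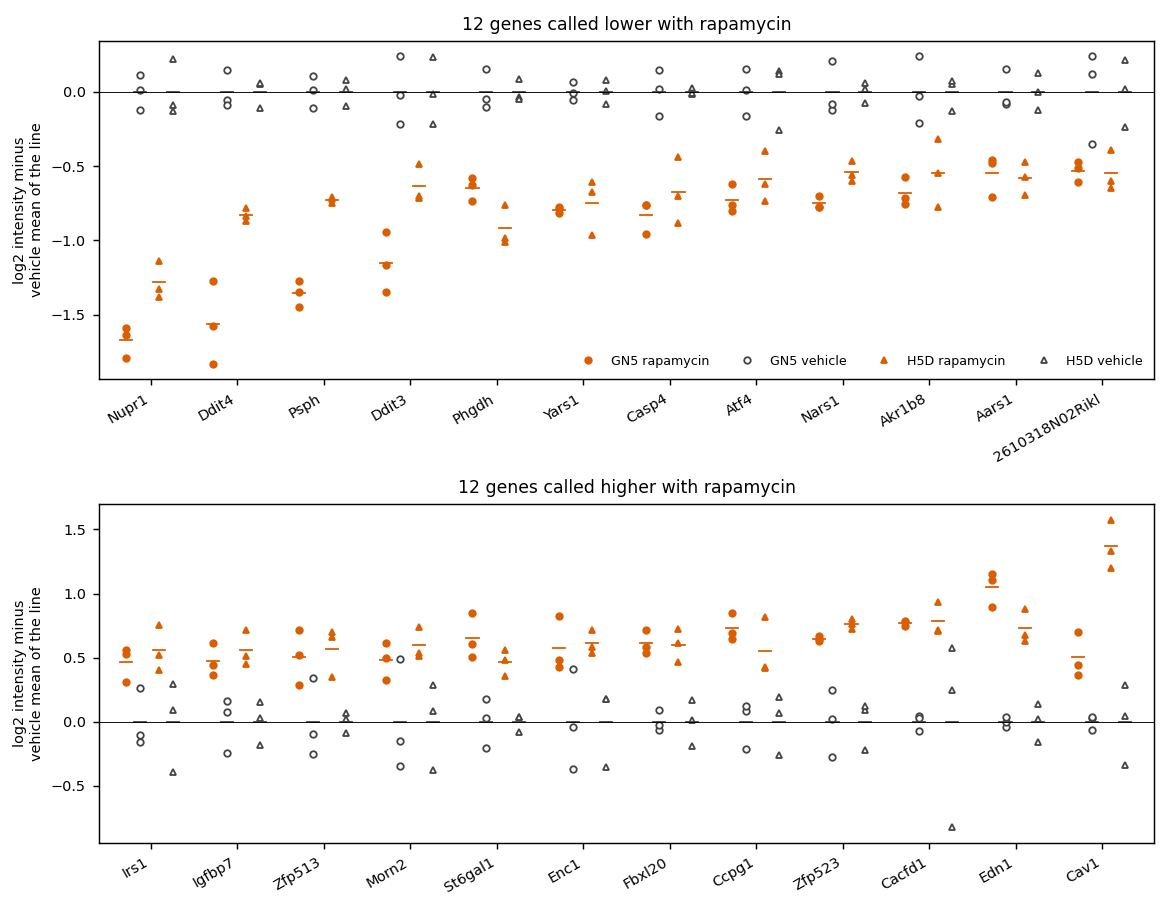
Log2 intensity minus the vehicle mean of the same line for the 12 falls and 12 rises with the largest change in the line that changed less (rapamycin in orange, vehicle in open grey, GN5 as circles, H5D as triangles, bars as means of 3 plates). Rapamycin and vehicle values were apart in both lines for all 12 falls and for 10 of the 12 rises, the exceptions being Zfp513 and Morn2. The genes were chosen by these same changes, which favors such separation. Of all called probes 58.2% were apart in both lines, and of all tested probes 3.35% lay below and 2.78% above.

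Beside the amino acid genes, the 12 largest shared falls held an inflammatory caspase, an aldo-keto reductase and an uncharacterized gene. Casp4, the caspase that senses intracellular lipopolysaccharide, read 5.41, 5.21 and 5.41 with rapamycin against 6.00, 6.19 and 6.31 with vehicle in GN5, and 6.74, 6.92 and 7.18 with rapamycin against 7.61, 7.65 and 7.61 with vehicle in H5D. It was undetected on the 3 GN5 rapamycin arrays, which gives a fall of at least 1.56-fold (adjusted p = 0.000126). Akr1b8, which reduces reactive aldehydes, gave 6.38, 6.24 and 6.20 with rapamycin against 7.19, 6.92 and 6.74 with vehicle in GN5, and 11.44, 11.21 and 10.98 with rapamycin against 11.63, 11.81 and 11.83 with vehicle in H5D. Its levels were far higher in H5D, yet the change was -0.68 in GN5 and -0.55 in H5D (log2 fold change -0.61, SE 0.093, adjusted p = 0.0017). The uncharacterized gene 2610318N02Rikl was lower as well (log2 fold change -0.54, SE 0.1, adjusted p = 0.00713), with a change of -0.53 in GN5 and -0.54 in H5D.

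The calls among glycolytic enzymes were lower and small. Of 15 tested, 7 were called lower, 0 higher and 8 did not pass, the median was -0.25 (-0.38 in GN5 and -0.22 in H5D), and all 15 averages were below 0, 14 of them in both lines. Over all tested probes, 4.16% were called lower and 59.1% had the same sign in both lines, in either direction. Triosephosphate isomerase, Tpi1, was among the brightest members, with 12.66, 12.67 and 12.58 with rapamycin against 13.12, 13.03 and 13.02 with vehicle in GN5, and 13.26, 13.28 and 13.39 with rapamycin against 13.59, 13.61 and 13.57 with vehicle in H5D. Its groups were separated in both lines (log2 fold change -0.35, SE 0.062, adjusted p = 0.00465). Lactate dehydrogenase A, Ldha, read 11.06, 11.09 and 10.91 with rapamycin against 11.73, 11.60 and 11.66 with vehicle in GN5, and 11.73, 11.60 and 11.49 with rapamycin against 11.68, 11.67 and 12.08 with vehicle in H5D. Its H5D groups overlapped (log2 fold change -0.42, SE 0.098, adjusted p = 0.0164). Phosphoglycerate kinase, Pgk1, gave 11.25, 11.35 and 11.16 with rapamycin against 11.56, 11.81 and 11.92 with vehicle in GN5, and 11.47, 11.56 and 11.66 with rapamycin against 11.75, 11.87 and 11.88 with vehicle in H5D, apart in both lines (log2 fold change -0.39, SE 0.08, adjusted p = 0.01).

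Pfkp (-0.31, adjusted p = 0.0127), a phosphofructokinase that controls flux into glycolysis, and the aldolase Aldoa (-0.30, adjusted p = 0.013) fell too. The call of Gapdh (-0.38, adjusted p = 0.0441) ended without GN5 rapamycin replicate 1, 2 or 3, GN5 vehicle replicate 2 or 3, H5D rapamycin replicate 1 or H5D vehicle replicate 2 (highest adjusted p = 0.106), and that of the enolase Eno1 (-0.37, adjusted p = 0.0426) ended without GN5 rapamycin replicate 1, 2 or 3, GN5 vehicle replicate 2 or 3, H5D rapamycin replicate 1 or 2 or H5D vehicle replicate 2 (highest adjusted p = 0.0994). The liver-type phosphofructokinase Pfkl (-0.23, adjusted p = 0.243) and the hexokinase Hk2 (-0.074, adjusted p = 0.815) did not pass, and Hk2 had changes of -0.40 in GN5 and 0.25 in H5D. Leaving out 1 array at a time gave 5 to 8 called members. With those 2 GN5 vehicle arrays (replicates 2 and 3) left out there was 1, Tpi1 (adjusted p = 0.0361), against 0.118 for Ldha and 0.0834 for Pgk1. With arrays scaled to a common median there was 0, and Tpi1 had an adjusted p of 0.126. Of 3 pentose phosphate genes limma called 0 (0 at an unadjusted p below 0.05), and of 13 genes of the citric acid cycle it called 0 (1 at an unadjusted p below 0.05), as did the plain t-test.

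The calls among sterol synthesis genes depended on single arrays. Of 15 genes, 4 were called lower (26.7%, against 4.16% of all probes) and 0 higher, with a median of -0.27 (-0.24 in GN5 and -0.11 in H5D). The called members were lanosterol demethylase Cyp51 (-0.46), the sterol reductase Tm7sf2 (-0.39), isopentenyl isomerase Idi1 (-0.28) and the sterol isomerase Ebp (-0.27). The number of called members was 0 without GN5 rapamycin replicate 2, GN5 vehicle replicate 3 or H5D rapamycin replicate 1. It was 1 without GN5 rapamycin replicate 3, H5D rapamycin replicate 2 or H5D vehicle replicate 1 or 2, and 2 without GN5 rapamycin replicate 1 or GN5 vehicle replicate 2. It was 3 or 4 without the remaining arrays. Srebf1, the gene of the sterol and lipid regulator SREBP1, was called lower (-0.32, adjusted p = 0.0326), and the call ended without GN5 rapamycin replicate 1, 2 or 3, GN5 vehicle replicate 1, 2 or 3 or H5D rapamycin replicate 2 (highest adjusted p = 0.0774). Of 8 genes of fatty acid synthesis, the desaturase Fads1 alone was called (-0.38, adjusted p = 0.0443), and this ended without GN5 rapamycin replicate 1, 2 or 3, GN5 vehicle replicate 1, 2 or 3, H5D rapamycin replicate 1 or 2 or H5D vehicle replicate 1 or 2 (highest adjusted p = 0.0957).

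Of the components of the mTOR pathway, most were not called at the level of RNA. Among 21 tested genes of the complexes and their upstream regulators, 2 were called higher (9.52%, against 3.89% of all probes) and 3 lower (14.3%, against 4.16%). The list median was 0.0093. Of the subunits of the complexes, Mtor gave 7.42, 7.56 and 7.56 with rapamycin against 7.45, 7.41 and 7.34 with vehicle in GN5, and 8.08, 8.02 and 8.19 with rapamycin against 8.27, 8.08 and 8.02 with vehicle in H5D. The groups overlapped in both lines (log2 fold change 0.044, SE 0.07, adjusted p = 0.754). Mlst8 (0.0093, adjusted p = 0.963), the mTORC1 inhibitor PRAS40 gene Akt1s1 (-0.065, adjusted p = 0.774) and the mTORC2 subunit Mapkap1 (-0.18, adjusted p = 0.233) did not pass either. Rptor was not tested because it failed the detection filter, and no probe was named Rictor or Deptor. The signs of Mtor, Mlst8 and Akt1s1 each changed under at least 1 alternative.

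The lower regulators were Ddit4, described above, Lamtor5, a Ragulator subunit that anchors mTORC1 at the lysosome, and Flcn, which acts on the Rag GTPases. Lamtor5 read 8.55, 8.53 and 8.50 with rapamycin against 8.81, 8.98 and 8.94 with vehicle in GN5, and 8.83, 8.70 and 8.80 with rapamycin against 8.93, 9.39 and 9.02 with vehicle in H5D. It was lower on all rapamycin arrays of each line than on the line's vehicle arrays (log2 fold change -0.36, SE 0.079, adjusted p = 0.013), and the call ended without GN5 vehicle replicates 2 and 3 (adjusted p = 0.101), as did that of Sgk1 (0.087), and with arrays scaled to a common median (0.143 for Lamtor5). The call of Flcn (-0.26, adjusted p = 0.0477) ended without GN5 rapamycin replicate 1 or 2, GN5 vehicle replicate 1, 2 or 3, H5D rapamycin replicate 1 or 2 or H5D vehicle replicate 1, 2 or 3 (highest adjusted p = 0.118). Of the 15 mTOR substrates and effectors, Sgk1, a kinase activated by mTORC2, was called higher (0.44, adjusted p = 0.0113), and Eif4ebp1 and Srebf1 lower, and the number of lower calls was 0 without any 1 of the GN5 arrays. Ribosomal protein S6, Rps6, whose phosphorylation reports S6 kinase activity, was not called (0.10, adjusted p = 0.46). Nor were the S6 kinase gene Rps6kb1 (0.014, adjusted p = 0.939), Akt1 (0.21, adjusted p = 0.285), cyclin E1, Ccne1 (0.00, adjusted p = 1), or the cyclin kinase inhibitor p27, Cdkn1b (-0.15, adjusted p = 0.204). The line changes of Ccne1 were 0.21 in GN5 and -0.21 in H5D.

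Irs1 and the receptor for insulin-like growth factor 1 rose. Irs1, the docking protein between the insulin and insulin-like growth factor receptors and PI3 kinase, gave 7.98, 8.23 and 8.20 with rapamycin against 7.93, 7.57 and 7.51 with vehicle in GN5, and 5.83, 5.60 and 5.48 with rapamycin against 5.17, 4.69 and 5.37 with vehicle in H5D. Both lines were separated (log2 fold change 0.52, SE 0.11, adjusted p = 0.013), although 1 of 3 H5D vehicle arrays detected it. Igf1r, the receptor, read 8.22, 8.21 and 8.30 with rapamycin against 8.07, 7.77 and 7.87 with vehicle in GN5, and 7.80, 7.93 and 7.93 with rapamycin against 7.69, 7.68 and 7.61 with vehicle in H5D. It was higher on each rapamycin array (log2 fold change 0.28, SE 0.068, adjusted p = 0.0211), and the call ended without GN5 rapamycin replicate 3 or GN5 vehicle replicate 2 (highest adjusted p = 0.0542). Igfbp7, a secreted protein that binds insulin-like growth factors weakly, gave 7.67, 7.75 and 7.92 with rapamycin against 7.47, 7.38 and 7.06 with vehicle in GN5, and 10.14, 9.87 and 9.94 with rapamycin against 9.45, 9.57 and 9.24 with vehicle in H5D. It rose by 0.47 in GN5 and 0.56 in H5D (log2 fold change 0.52, SE 0.089, adjusted p = 0.00407).

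Of the 5 tested genes of the insulin-like growth factor axis, these 3 were called higher, Igf2r, which clears IGF2, was at 0.35, adjusted p = 0.0622, and Igfbp6 at -0.21, adjusted p = 0.169. The list median was 0.35 (0.47 in GN5 and 0.23 in H5D). Without GN5 vehicle replicates 2 and 3, Igfbp7 kept its call (adjusted p = 0.0309), and adjusted p was 0.106 for Irs1 and 0.15 for Igf1r. Irs1 and Igf1r are also in the list of mTOR regulators. Grb10 and Insr did not pass the detection filter in both lines and were not tested here.

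Genes that the cofactor YAP activates through TEAD factors formed the list with the highest median. YAP is a cofactor that the Hippo kinases hold in the cytoplasm, and its targets respond to cell shape and growth cues. Of 12 tested, 9 were called higher and 0 lower, the median was 0.49 (0.48 in GN5 and 0.36 in H5D), and 11 averaged above 0 in both lines. Over all tested probes, 3.89% were called higher and 59.1% had the same sign in both lines, in either direction. Edn1, which encodes endothelin-1, read 10.92, 10.70 and 10.97 with rapamycin against 9.77, 9.81 and 9.85 with vehicle in GN5, and 8.01, 7.81 and 7.76 with rapamycin against 7.15, 6.97 and 7.27 with vehicle in H5D. All rapamycin values were above all vehicle values of the line (log2 fold change 0.89, SE 0.085, adjusted p = 3.41e-05). Cav1, the coat protein of caveolae, gave 8.01, 7.68 and 7.75 with rapamycin against 7.34, 7.34 and 7.24 with vehicle in GN5, and 7.52, 7.27 and 7.15 with rapamycin against 6.24, 5.61 and 5.99 with vehicle in H5D. It was higher on each rapamycin array (log2 fold change 0.94, SE 0.15, adjusted p = 0.0026), and a second probe of the gene rose less (log2 fold change 0.53, adjusted p = 0.00465).

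F3, which encodes tissue factor, the initiator of coagulation, read 8.89, 8.76 and 9.01 with rapamycin against 8.58, 8.57 and 8.43 with vehicle in GN5, and 11.35, 11.40 and 11.23 with rapamycin against 10.60, 10.62 and 10.70 with vehicle in H5D. It was separated in both lines (log2 fold change 0.52, SE 0.078, adjusted p = 0.0017). Ccn2, the connective tissue growth factor gene, rose in H5D, with 13.84, 13.73 and 13.67 with rapamycin against 13.76, 13.73 and 13.75 with vehicle in GN5, and 10.92, 10.91 and 10.79 with rapamycin against 9.41, 9.48 and 9.05 with vehicle in H5D. The average (log2 fold change 0.78, SE 0.21, adjusted p = 0.0347) stood beside a GN5 change of -0.0022, the difference between the lines was called (-1.56, interval -1.89 to -1.23, adjusted p = 0.000457), and the call of the average ended without H5D rapamycin replicate 1, 2 or 3 or H5D vehicle replicate 1, 2 or 3 (highest adjusted p = 0.0788). Ankrd1, a nuclear ankyrin protein, was the reverse, with 8.09, 7.84 and 7.71 with rapamycin against 6.57, 6.43 and 6.36 with vehicle in GN5, and 6.32, 6.34 and 6.29 with rapamycin against 6.35, 6.01 and 6.34 with vehicle in H5D. Its change was 1.43 in GN5 and 0.084 in H5D (difference 1.34, interval 0.99 to 1.70, adjusted p = 0.0017), and the call of the average ended without GN5 rapamycin replicate 1, 2 or 3 or GN5 vehicle replicate 2 or 3 (highest adjusted p = 0.0646).

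The other members called were Ccn1 (0.56, adjusted p = 0.0261), a matricellular protein, Crim1 (0.46, adjusted p = 0.0155), a membrane protein that binds BMPs, Tgfb2 (0.45, adjusted p = 0.0114), and the receptor tyrosine kinase Axl (0.32, adjusted p = 0.0307). Ccn1, Crim1, Axl and F3 are outside the rule for named genes and complete the list. The call of Ccn1 ended without GN5 rapamycin replicate 1, 2 or 3, GN5 vehicle replicate 2 or 3 or H5D rapamycin replicate 1 (highest adjusted p = 0.0679), and that of Axl without GN5 rapamycin replicate 2, GN5 vehicle replicate 3 or H5D rapamycin replicate 1 or 3 (highest adjusted p = 0.0695). Nuak2 (0.34, adjusted p = 0.0814), Ajuba (0.24, adjusted p = 0.086) and Wwtr1, which encodes the YAP homolog TAZ (0.21, adjusted p = 0.0705), did not pass. Leaving out 1 array at a time gave 6 to 9 called members. With those 2 GN5 vehicle arrays (replicates 2 and 3) left out there were 4, namely Edn1, Cav1, F3 and Ccn2 (adjusted p = 0.00109, 0.00766, 0.00963 and 0.0344), and with arrays scaled to a common median there were 3.

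**Figure D4:**
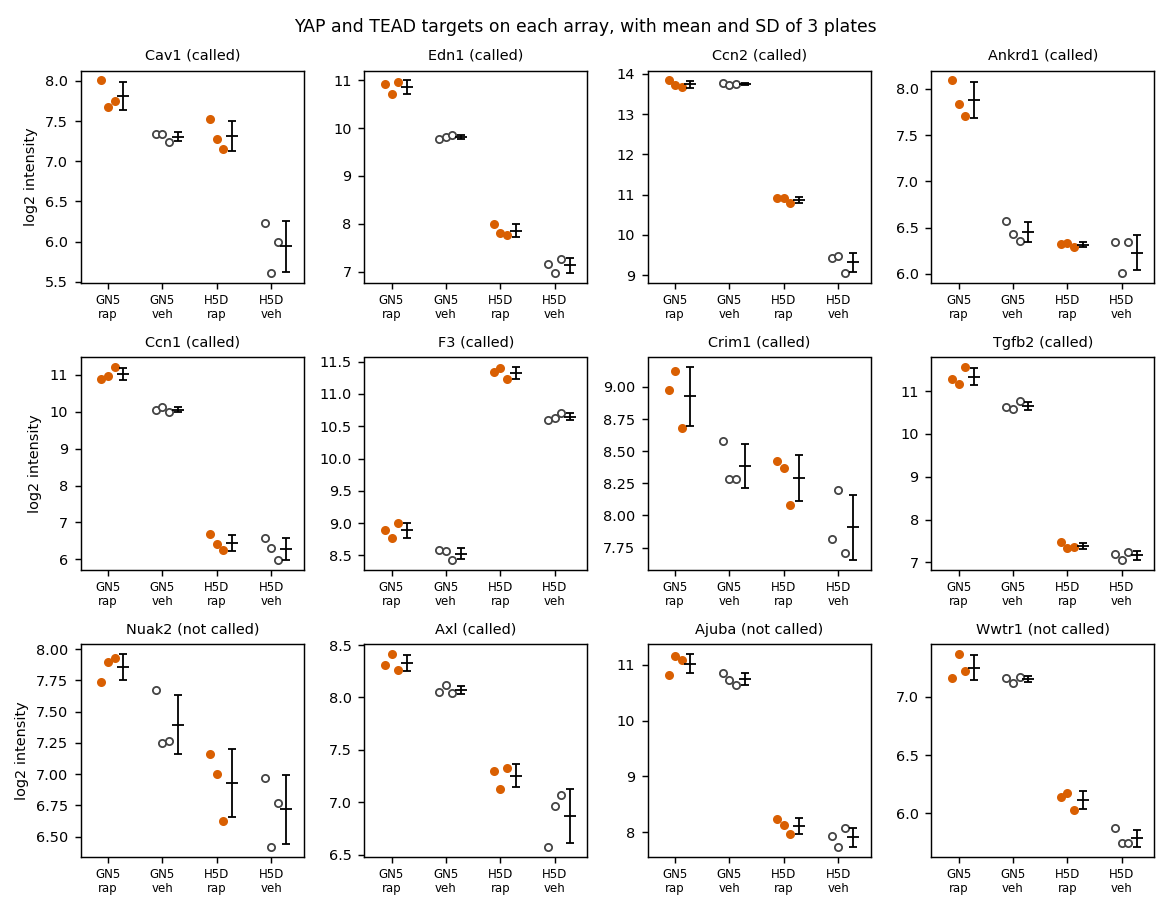
Log2 intensity of the 12 tested YAP and TEAD targets on each array, with the mean and SD of 3 plates per group, rapamycin left of vehicle in each line. Edn1, Cav1, F3, Tgfb2 and Axl were separated in both lines, Ankrd1 rose in GN5 (1.43) and Ccn2 in H5D (1.56).

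Lists of secreted and matrix genes also held rises. Of 12 genes of the TGF-beta and BMP response, 3 were called higher (25%, against 3.89% of all probes) and 0 lower, with a median of 0.19. The 3 were the inhibitor Smad6 (0.59, adjusted p = 0.00762), the ligand Tgfb2 and the feedback protein Pmepa1 (0.42, adjusted p = 0.0141). Smad6 read 8.83, 9.14 and 9.18 with rapamycin against 8.20, 8.29 and 8.00 with vehicle in GN5, and 6.68, 6.83 and 7.08 with rapamycin against 6.64, 6.56 and 6.49 with vehicle in H5D. It was higher on all rapamycin arrays, with a change of 0.89 in GN5 and 0.30 in H5D. When GN5 vehicle replicates 2 and 3 were left out, 0 of the 12 were called, and adjusted p was 0.0657 for Smad6, 0.0926 for Tgfb2 and 0.0601 for Pmepa1.

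Among 14 collagen and matrix genes, 3 were called higher (21.4%, against 3.89% of all probes) and 0 lower. The 3 were the laminin chain Lamc1 (0.39, adjusted p = 0.0077), fibronectin, Fn1 (0.42, adjusted p = 0.0239), and the cross-linking enzyme Loxl1 (0.35, adjusted p = 0.0328). The call of Fn1 ended without GN5 rapamycin replicate 2 or 3, GN5 vehicle replicate 3 or H5D rapamycin replicate 1 (highest adjusted p = 0.0646), that of Loxl1 without GN5 rapamycin replicate 1, 2 or 3, GN5 vehicle replicate 1 or 3, H5D rapamycin replicate 1 or 2 or H5D vehicle replicate 2 (highest adjusted p = 0.0802), and a second Loxl1 probe was not called (0.15, adjusted p = 0.521). Of 9 contractile genes, the actin-binding proteins Cald1 (0.60, adjusted p = 0.00748) and Tpm4 (0.33, adjusted p = 0.00436) were called higher, both separated in both lines. The call of Cald1 ended without GN5 vehicle replicates 2 and 3 (adjusted p = 0.0657), where that of Tpm4 held (0.0314), and both ended with arrays scaled to a common median (0.0663 and 0.211). Tpm4 read 12.23, 12.20 and 12.22 with rapamycin against 11.90, 11.95 and 11.83 with vehicle in GN5, and 11.55, 11.48 and 11.56 with rapamycin against 11.21, 11.17 and 11.19 with vehicle in H5D. Of 13 immediate early and MAPK feedback genes, 2 were called higher (15.4%, against 3.89% of all probes). They were the transcription factor Egr1 (0.52, adjusted p = 0.00966) and the ERK phosphatase Dusp6 (0.41, adjusted p = 0.012). Of 8 chemokines and NF-kappaB targets limma called 0, with 1 at an unadjusted p below 0.05, and the plain t-test called 0. Of 18 interferon-responsive genes, 4 were called lower (22.2%, against 4.16% of all probes) and 1, Ifi27, higher (0.42, adjusted p = 0.011). The calls of Lamc1, Dusp6 and Ifi27 also ended without those 2 arrays (adjusted p = 0.0742, 0.0985 and 0.0791). The Ifi27 relative Ifi27l2b fell (-0.91, adjusted p = 0.000418), with a change of -1.29 in GN5 and -0.52 in H5D, and the median of the list was -0.087.

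Several of the largest shared rises belong to none of these groups. Cacfd1, a membrane protein with a calcium channel flower domain, read 8.34, 8.34 and 8.30 with rapamycin against 7.48, 7.60 and 7.58 with vehicle in GN5, and 6.65, 6.42 and 6.43 with rapamycin against 5.96, 4.89 and 6.29 with vehicle in H5D. The lowest value was that of H5D vehicle replicate 2, and the probe was detected on 2 of 3 H5D vehicle arrays (log2 fold change 0.78, SE 0.16, adjusted p = 0.0111). The zinc finger gene Zfp523 gave 7.35, 7.31 and 7.32 with rapamycin against 6.93, 6.70 and 6.40 with vehicle in GN5, and 7.74, 7.70 and 7.66 with rapamycin against 7.03, 6.72 and 7.06 with vehicle in H5D. Its rise was close to equal in the 2 lines, 0.65 in GN5 and 0.76 in H5D (log2 fold change 0.71, SE 0.088, adjusted p = 0.000353). Ccpg1, a receptor for autophagy of the endoplasmic reticulum, read 7.58, 7.53 and 7.74 with rapamycin against 6.98, 6.68 and 7.01 with vehicle in GN5, and 7.56, 7.55 and 7.95 with rapamycin against 7.32, 6.87 and 7.19 with vehicle in H5D. No value of 1 treatment lay in the range of the other (log2 fold change 0.64, SE 0.1, adjusted p = 0.00218). Fbxl20, an F-box protein of a ubiquitin ligase, gave 7.48, 7.35 and 7.29 with rapamycin against 6.85, 6.69 and 6.73 with vehicle in GN5, and 7.81, 7.70 and 7.55 with rapamycin against 7.11, 6.90 and 7.26 with vehicle in H5D. It rose by 0.61 in GN5 and 0.60 in H5D (log2 fold change 0.61, SE 0.076, adjusted p = 0.000366), with a difference between the lines of 0.013 (interval -0.32 to 0.34).

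St6gal1, which adds sialic acid to glycoproteins, rose by 0.65 in GN5 and 0.47 in H5D (log2 fold change 0.56, SE 0.085, adjusted p = 0.0017). Enc1, an actin-binding kelch protein, rose by 0.58 in GN5 and 0.61 in H5D (log2 fold change 0.60, SE 0.13, adjusted p = 0.0113) and was detected on 1 of 3 GN5 vehicle arrays. The zinc finger gene Zfp513 (log2 fold change 0.54, SE 0.1, adjusted p = 0.00762) and Morn2 (log2 fold change 0.54, SE 0.13, adjusted p = 0.0231) had overlapping groups in GN5. The call of Morn2 ended without GN5 rapamycin replicate 3, GN5 vehicle replicate 2 or 3 or H5D rapamycin replicate 2 (highest adjusted p = 0.0579). The calls of Cacfd1, Enc1 and Zfp513 ended without GN5 vehicle replicates 2 and 3 (adjusted p = 0.0602, 0.0901 and 0.0736). Arhgap24, a GTPase-activating protein for Rac, was called on average (0.46, adjusted p = 0.046) with changes of 0.94 in GN5 and -0.021 in H5D (difference 0.96, interval 0.71 to 1.21, adjusted p = 0.0017), and the call ended without GN5 rapamycin replicate 1, 2 or 3, GN5 vehicle replicate 1, 2 or 3 or H5D rapamycin replicate 2 (highest adjusted p = 0.115).

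Lysosome and autophagy genes had no common direction. Of 32 tested, 4 were called higher (12.5%, against 3.89% of all probes) and 1 lower, and the median was -0.0042. The higher ones were the autophagy protein Wipi1, the lysosomal membrane protein Lamp1, hexosaminidase, Hexa, and the LC3 gene Map1lc3a. Wipi1 read 8.34, 8.34 and 8.19 with rapamycin against 8.03, 8.12 and 7.97 with vehicle in GN5, and 7.35, 7.33 and 7.42 with rapamycin against 7.06, 6.83 and 6.72 with vehicle in H5D. Groups were apart in both lines (log2 fold change 0.37, SE 0.078, adjusted p = 0.0107). Lamp1 gave 11.27, 11.21 and 11.10 with rapamycin against 10.81, 10.79 and 10.80 with vehicle in GN5, and 11.89, 11.77 and 11.79 with rapamycin against 11.60, 11.41 and 11.67 with vehicle in H5D, also apart (log2 fold change 0.33, SE 0.068, adjusted p = 0.0111). Without GN5 vehicle replicates 2 and 3 the call of Lamp1 ended (adjusted p = 0.0834) and that of Wipi1 held (0.0344), and with arrays scaled to a common median both ended (0.322 and 0.162). The call of Hexa (0.31, adjusted p = 0.0431) ended without GN5 rapamycin replicate 1 or 3, GN5 vehicle replicate 2 or 3, H5D rapamycin replicate 1, 2 or 3 or H5D vehicle replicate 1 or 2 (highest adjusted p = 0.105), and that of Map1lc3a (0.30, adjusted p = 0.0424) ended without GN5 rapamycin replicate 2, GN5 vehicle replicate 1 or 2, H5D rapamycin replicate 1, 2 or 3 or H5D vehicle replicate 1, 2 or 3 (highest adjusted p = 0.0925).

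The autophagy receptor Sqstm1, itself a target of NRF2, fell. It read 8.74, 8.54 and 8.63 with rapamycin against 9.02, 8.91 and 9.11 with vehicle in GN5, and 9.08, 9.19 and 9.16 with rapamycin against 10.05, 9.99 and 10.00 with vehicle in H5D. The change was -0.38 in GN5 and -0.88 in H5D (log2 fold change -0.63, SE 0.09, adjusted p = 0.00114). Of its 2 other probes, 1 was called lower (log2 fold change -0.43, adjusted p = 0.0206) and 1 was not (-0.034, adjusted p = 0.866). Of 22 genes of glutathione metabolism and NRF2 response, 4 were called lower (18.2%, against 4.16% of all probes) and 0 higher, with a median of -0.14. The quinone reductase Nqo1 gave 8.70, 8.64 and 8.47 with rapamycin against 9.18, 8.95 and 9.17 with vehicle in GN5, and 9.54, 9.63 and 9.65 with rapamycin against 10.44, 10.36 and 10.39 with vehicle in H5D. It was lower on every rapamycin array (log2 fold change -0.64, SE 0.078, adjusted p = 0.000269), as was Akr1b8, and without GN5 vehicle replicates 2 and 3 the number of lower calls in this list was 2. Heme oxygenase, Hmox1, was called as well (-0.45, adjusted p = 0.00966), a call that ended without those 2 arrays (adjusted p = 0.0742). The call of the glutathione transferase Gstm1 (-0.28, adjusted p = 0.0351) ended without GN5 rapamycin replicate 1 or 2, GN5 vehicle replicate 2 or 3, H5D rapamycin replicate 1 or H5D vehicle replicate 2 (highest adjusted p = 0.0835).

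The calls among genes of protein folding and turnover were few, small and lower. Of 36 proteasome subunits, 5 were called lower (13.9%, against 4.16% of all probes), 0 higher and 31 did not pass, and 32 averaged below 0 in both lines, with a median of -0.18. Over all tested probes, 59.1% had the same sign in both lines, in either direction. The assembly chaperone Psmd5 read 8.86, 8.74 and 8.85 with rapamycin against 9.06, 9.08 and 9.24 with vehicle in GN5, and 8.66, 8.59 and 8.68 with rapamycin against 9.16, 9.16 and 8.98 with vehicle in H5D, apart in both lines (log2 fold change -0.38, SE 0.068, adjusted p = 0.00465). The catalytic subunit Psmb8 (-0.30, adjusted p = 0.0175) lost its call without GN5 rapamycin replicate 2 (highest adjusted p = 0.0507), and between 1 and 6 subunits were called when 1 array was left out. The 3 remaining calls were Psmd13 (-0.37, adjusted p = 0.0428), Psmb10 (-0.26, adjusted p = 0.0424) and Psmb7 (-0.23, adjusted p = 0.0431). These ended without 10, 9 and 11 of the 12 arrays in turn, and all 3 ended without each GN5 rapamycin array, GN5 vehicle replicates 2 and 3, and H5D rapamycin replicate 2. Psmb8 and Psmb10 are also in the list of interferon-responsive genes.

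Of 21 endoplasmic reticulum chaperones and unfolded protein response genes, 6 were called lower (28.6%, against 4.16% of all probes) and 0 higher, with a median of -0.20. The calcium-binding chaperone Calr gave 13.39, 13.38 and 13.35 with rapamycin against 13.67, 13.93 and 13.80 with vehicle in GN5, and 12.75, 12.66 and 12.77 with rapamycin against 13.02, 12.92 and 12.99 with vehicle in H5D. It was lower on all rapamycin arrays (log2 fold change -0.34, SE 0.068, adjusted p = 0.0092), as were the cochaperone Dnajb11 (-0.32, adjusted p = 0.0102) and the redox protein Creld2 (-0.30, adjusted p = 0.0164). All 17 cytosolic and mitochondrial chaperones averaged below 0, where the median of all probes was -0.003. Of the 17, 3 were called lower (17.6%, against 4.16% of all probes): the small heat shock protein Hspb1 (-0.45, adjusted p = 0.00825), and the mitochondrial chaperones Hspa9 (-0.27, adjusted p = 0.0231) and Hspd1 (-0.25, adjusted p = 0.0233). The call of Hspa9 ended without H5D rapamycin replicate 1 or 2 (highest adjusted p = 0.0582) and that of Hspd1 without GN5 rapamycin replicate 2 or 3 or H5D rapamycin replicate 1 (highest adjusted p = 0.0607). With GN5 vehicle replicates 2 and 3 omitted, 1 proteasome subunit (Psmd5), 1 endoplasmic reticulum gene (Herpud1) and 1 chaperone (Hspb1) were called. Calr, Dnajb11 and Creld2 then had adjusted p values of 0.0743, 0.0708 and 0.129. With arrays scaled to a common median 0 members of these 3 lists were called, with an adjusted p of 0.114 for Psmd5, 0.179 for Herpud1 and 0.0893 for Hspb1.

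The genes of the translation apparatus itself did not move together. Of 56 cytosolic ribosomal proteins, 1 was called lower and 0 higher, and the median was 0.039. The called gene was Rplp2, a stalk protein, with a change of -0.92 in GN5 and -0.27 in H5D (-0.59, adjusted p = 0.0112), whose probe was detected on 2 of 3 H5D rapamycin arrays. Of 30 translation factors, the elongation factor Eef2 was called higher and the exchange factor subunit Eif2b4 lower (-0.28, adjusted p = 0.0326). Eef2 read 13.38, 13.52 and 13.50 with rapamycin against 13.31, 13.22 and 12.86 with vehicle in GN5, and 12.46, 12.33 and 12.09 with rapamycin against 12.04, 11.84 and 11.69 with vehicle in H5D. Its groups were separated (log2 fold change 0.39, SE 0.093, adjusted p = 0.0217), and the call ended without GN5 rapamycin replicate 2, GN5 vehicle replicate 3 or H5D rapamycin replicate 1 (highest adjusted p = 0.055). The call of Eif2b4 ended without GN5 rapamycin replicate 2 or 3, GN5 vehicle replicate 3, H5D rapamycin replicate 1 or 2 or H5D vehicle replicate 2 (highest adjusted p = 0.0801). Of 39 genes of ribosome biogenesis, the nucleolar protein Nolc1 alone was called (-0.27, adjusted p = 0.0182), and of 47 subunits of oxidative phosphorylation, 3 were called lower, namely Ndufb9 (-0.33, adjusted p = 0.00935), Atp5mc1 (-0.32, adjusted p = 0.0304) and Ndufa8 (-0.29, adjusted p = 0.0289). The call of Atp5mc1 ended without GN5 rapamycin replicate 2 or 3, GN5 vehicle replicate 2 or 3, H5D rapamycin replicate 2 or 3 or H5D vehicle replicate 1 (highest adjusted p = 0.0753), and that of Ndufa8 without GN5 rapamycin replicate 2 or 3, GN5 vehicle replicate 3 or H5D rapamycin replicate 1 (highest adjusted p = 0.0727). Those of Rplp2, Nolc1 and Ndufb9 ended without GN5 vehicle replicates 2 and 3 (adjusted p = 0.0837, 0.0502 and 0.0584). These shares were near or under those of all probes (3.89% higher and 4.16% lower), apart from 6.38% lower for the oxidative phosphorylation subunits.

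**Figure D5:**
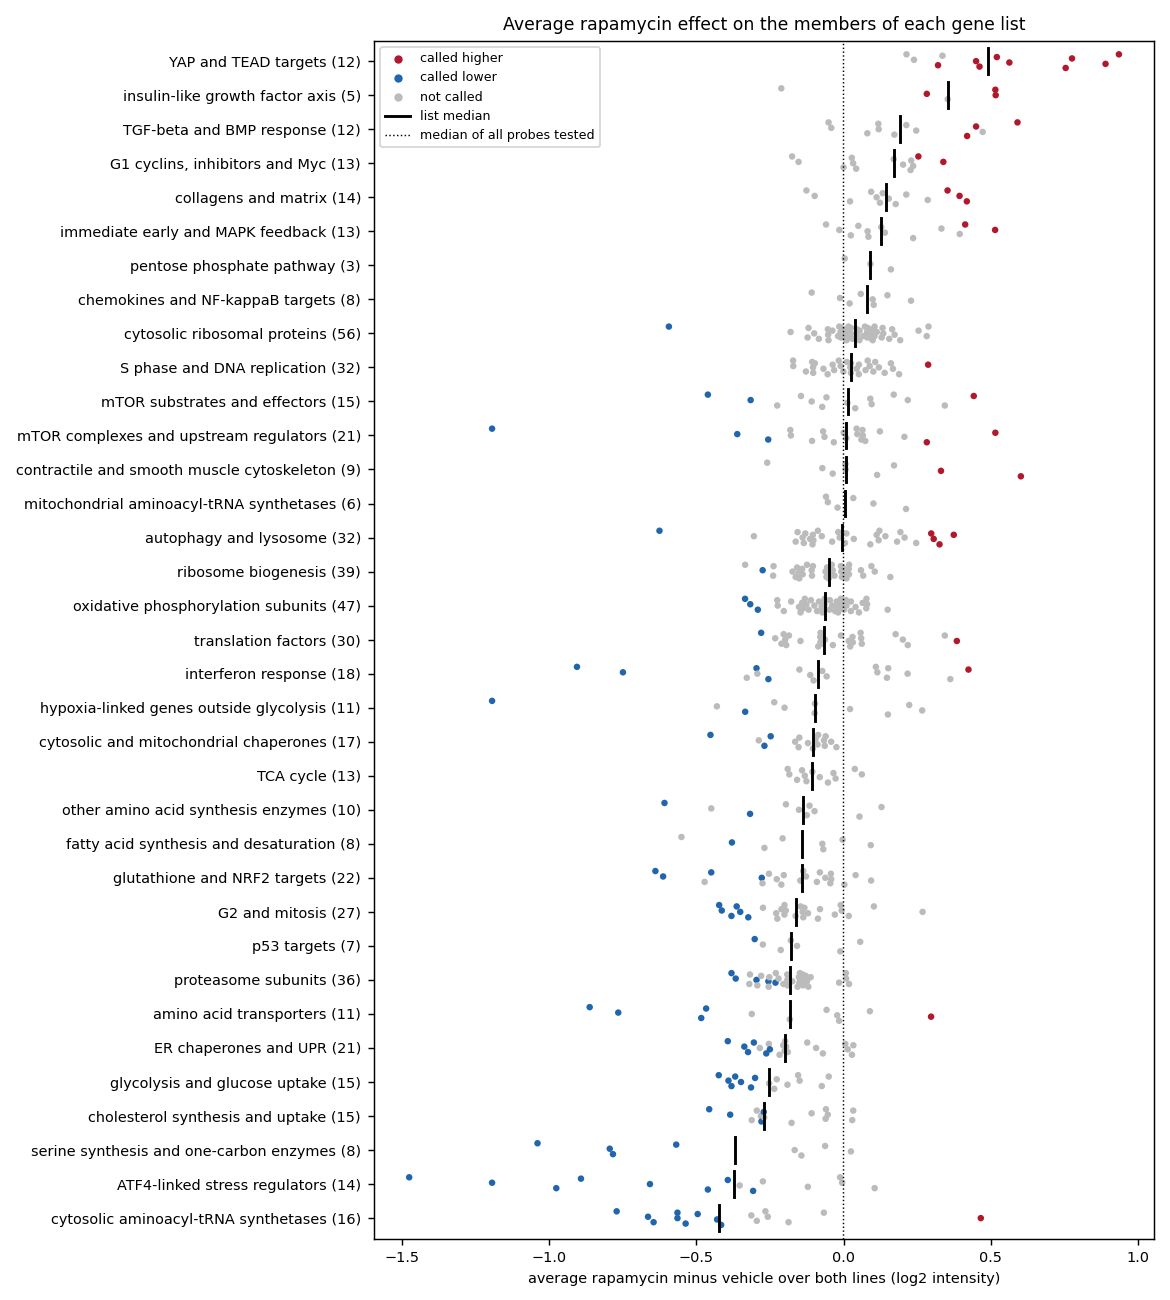
Average rapamycin minus vehicle difference (log2 intensity) of every tested member of each list, with the list median as a bar, the number tested in parentheses and the median of all probes as a dotted line. Medians ran from -0.42 for the cytosolic tRNA synthetases to 0.49 for the YAP and TEAD targets, and cytosolic ribosomal proteins lay near 0. The lists were chosen with earlier results of these data known.

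Of the cell cycle lists, that of G2 and mitosis held the most calls. Of 27 genes of G2 and mitosis, 6 were called lower (22.2%, against 4.16% of all probes) and 0 higher. The median was -0.16 (-0.16 in GN5 and -0.23 in H5D), and leaving out 1 array at a time gave 5 to 7 calls. The mitotic kinase Plk1 read 8.65, 8.50 and 8.49 with rapamycin against 9.01, 8.77 and 9.01 with vehicle in GN5, and 8.29, 8.14 and 8.06 with rapamycin against 8.57, 8.43 and 8.85 with vehicle in H5D. It was lower on each rapamycin array (log2 fold change -0.41, SE 0.083, adjusted p = 0.00872). The kinase Aurka gave 7.98, 7.70 and 8.01 with rapamycin against 8.23, 8.29 and 8.16 with vehicle in GN5, and 7.60, 7.60 and 7.62 with rapamycin against 8.12, 7.89 and 8.10 with vehicle in H5D, also apart (log2 fold change -0.38, SE 0.073, adjusted p = 0.00748). Prc1, which bundles the spindle midzone (-0.35, adjusted p = 0.0157), the kinesin Kif20a (-0.32, adjusted p = 0.012) and the checkpoint protein Mad2l1 (-0.36, adjusted p = 0.0175) fell as well.

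The call of Cdc20, an activator of the anaphase-promoting complex (-0.42, adjusted p = 0.0196), ended without GN5 rapamycin replicate 3, GN5 vehicle replicate 2 or 3 or H5D rapamycin replicate 1 (highest adjusted p = 0.0532). The kinase gene Cdk1 (-0.08, adjusted p = 0.585) and cyclin A2, Ccna2 (-0.0095, adjusted p = 0.973), did not pass. Without GN5 vehicle replicates 2 and 3, 4 of the 27 were called lower, with an adjusted p of 0.032 for Plk1 and 0.036 for Aurka. With arrays scaled to a common median 0 were called, with an adjusted p of 0.146 for Plk1, 0.177 for Aurka, 0.242 for Mad2l1 and 0.146 for Cdc20. Of 32 genes of S phase and DNA replication, Mcm10 was called higher (0.29, adjusted p = 0.0438), and the call ended without GN5 rapamycin replicate 1, 2 or 3, GN5 vehicle replicate 2 or 3, H5D rapamycin replicate 1 or 3 or H5D vehicle replicate 1 or 2 (highest adjusted p = 0.106). Of 13 genes of G1 and the Myc network, 2 were called higher: Mycn (0.34, adjusted p = 0.0356), whose call ended without GN5 rapamycin replicate 1, 2 or 3, GN5 vehicle replicate 2 or 3 or H5D rapamycin replicate 2 (highest adjusted p = 0.084), and the MAX partner Mxd4 (0.25, adjusted p = 0.0415), whose call ended without GN5 rapamycin replicate 1, 2 or 3, GN5 vehicle replicate 2 or 3, H5D rapamycin replicate 1, 2 or 3 or H5D vehicle replicate 1 (highest adjusted p = 0.0943).

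Among the remaining lists, 2 of 11 genes linked to hypoxia outside glycolysis were called lower, Ddit4 and the mitophagy receptor Bnip3 (-0.33, adjusted p = 0.0426), and the call of Bnip3 ended without GN5 rapamycin replicate 1, 2 or 3, GN5 vehicle replicate 1, 2 or 3, H5D rapamycin replicate 1 or 3 or H5D vehicle replicate 1 (highest adjusted p = 0.104). Of 7 p53 targets, cyclin G1, Ccng1, was called lower (-0.30, adjusted p = 0.0242), and the call ended without GN5 rapamycin replicate 1 or H5D rapamycin replicate 1 or 2 (highest adjusted p = 0.0591). Both lists had medians under 0 (-0.098 and -0.18). A last list held genes that the paper itself had reported on, of which 10 were measured, and no probe was named Cdk2. Of these 10, 4 were called lower (40%, against 4.16% of all probes) and 0 higher. They were Eif4ebp1, whose protein the paper assayed, and Ldha, Pgk1 and Tpi1. The last 3, like Pfkl, were listed because of the paper's array results for glycolysis, which draw in part on these same arrays. Their calls are therefore not a separate test.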

How the data were processed

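RNA from 12 plates was profiled on Illumina RatRef-12 BeadChips. The deposited bead summaries hold 1 linear intensity and 1 detection p-value per probe, neither background-subtracted nor normalized by the authors. The deposited value table holds linear intensities that the authors quantile normalized in BeadStudio without background subtraction, for analysis in Partek 6.3. Intensities were background-corrected against negative-control information from the detection p-values, quantile normalized with an offset of 16 and taken to log2 with neqc (limma 3.58.1, R 4.3.3), whereas the authors deposited no log2 values. Probe names came from the platform annotation and were updated for 13752 of 13793 probes with 1 symbol, and 8730 probes had none. For a list, the brightest tested probe represented a gene.

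Rapamycin was set against vehicle with the line as a block (9 residual degrees of freedom), p-values were adjusted by Benjamini-Hochberg over 6805 probes, and the line difference came from a fit of 4 group means. All intervals of differences are 95% intervals. Where a group did not detect a probe on any array, the fold is a bound against the lowest detected signal of each array. The script was tested on simulated data.

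Named genes were the 12 rises and 12 falls with the largest smaller line change and the 5 called genes with the largest line difference. Added to these were 11 genes of the study's assays and glycolysis array results, up to 4 called members per list and the subunits of the mTOR complexes. Members and lists were chosen with earlier results of these data known. Alternatives were the value table, other scalings, no background correction, other filters, a replicate block, a plain t-test, array weights and leaving out arrays. The plain t-test kept the line in the model and took only its 1.2-fold limit and adjustment from the study's methods. The alternatives without 2 or 3 vehicle arrays and with scaling to probes detected on all 12 arrays were chosen after seeing the data.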

Additional observations from a re-analysis of the deposited data

Results flagged for a closer look

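Of the named genes, 7 had an average rapamycin effect past the threshold together with a difference between the lines past its own adjusted threshold (GN5 minus H5D, limma, 6805 probes). The fall was larger in GN5 for Psph (-0.63, adjusted p = 0.0435), Ifi27l2b (-0.76, adjusted p = 0.0141), Slc7a5 (-1.11, adjusted p = 0.00961) and Mthfd1l (-0.71, adjusted p = 0.0435). Arhgap24 (0.96, adjusted p = 0.0017) and Ankrd1 (1.34, adjusted p = 0.0017) rose in GN5, with H5D changes of -0.021 and 0.084. Ccn2 rose in H5D (-1.56, adjusted p = 0.000457), with a GN5 change of -0.0022. For the last 3 genes the average stands for 1 line. Groups of 3 arrays were too small to look for single outlying arrays.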

How the results depend on the processing

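The number of calls depended on the arrays and the scaling, and the 99 named called genes kept their sign under every alternative in which they were tested. Because these genes were chosen for their calls on the same arrays, the kept signs do not test them. With arrays scaled to a common median, 49 probes were called (24 higher, 25 lower, 38 of them separated in both lines) and 196 differed between the lines. Without GN5 vehicle replicates 2 and 3, 121 were called (49 higher, 72 lower, 120 separated) and 9 differed between lines. Without H5D vehicle replicate 2 as well, 128 were called (57 higher, 71 lower, 127 separated) and 7 differed between lines. Without a filter, 92 probes differed between lines among 22523 tested. The plain t-test called 272 (125 higher, 147 lower) with its 1.2-fold limit and 378 after Benjamini-Hochberg alone. Leaving out 1 array at a time gave 291 to 575 calls, with 149 to 280 higher, 142 to 295 lower, 229 to 397 separated and 17 to 49 that differed between lines. With replicate number as a block, 229 were called (112 higher, 117 lower, 170 separated). Same-numbered plates showed no steady joint deviation (correlations of -0.17, 0.11 and -0.23 in GN5 and 0.23, 0.01 and -0.38 in H5D, with 1 of 6 arrays closest to its own number). These few correlations share arrays and cannot tell whether the numbers pair the samples. The cause of these shifts was not tested. The value table gave 616 calls, no background correction 618, array weights 618, 4 group means 686, probes detected on all 12 arrays 520 and scaling to their median 500.

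Values that changed sign all belonged to genes that were not called. Cyclin E1, Ccne1, was at -0.0045 with the value table, -0.0047 without background correction, -0.0091 without GN5 vehicle replicates 2 and 3, and -0.063 to 0.077 when 1 array was left out (below 0 without GN5 rapamycin replicate 1 or 2, GN5 vehicle replicate 1 or 2, H5D rapamycin replicate 3 or H5D vehicle replicate 1). Mlst8 was at -0.023 to 0.053 when 1 array was left out (below 0 without GN5 rapamycin replicate 2 or 3, GN5 vehicle replicate 1 or H5D vehicle replicate 2), -0.0040 without GN5 vehicle replicates 2 and 3, -0.029 without the 3 vehicle arrays and -0.0065 with scaling to the median of detected probes. Akt1s1 was at -0.11 to 0.051 when 1 array was left out (above 0 without H5D vehicle replicate 2) and 0.028 without the 3 vehicle arrays, and Mtor at -0.0066 without the 3 vehicle arrays. A slide block was not run because the files used here give no slide or scan. Signal over background limits 12 called probes to a bound.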

Other observations

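Among the 33 tested genes whose promoter window held TGATGCAA, the 8 that were called lower were also separated in both lines. Timm22, which encodes a subunit of a mitochondrial inner membrane import complex, was the other gene separated in this way and was not called (-0.15, adjusted p = 0.187, with changes of -0.18 in GN5 and -0.12 in H5D). It was chosen after its values were seen.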
